A study of Mus musculus with 9 samples.

Results

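CpG methylation was described at 9 mouse genes of the synaptic adhesion and scaffold machinery, Nrxn2, Nrxn3, Nlgn1, Nlgn2, Shank1, Shank2, Shank3, Dlg4 and Homer1, among 34328 protein-coding and long noncoding RNA genes on autosomes and X. The genes were taken by name. The study ran whole-genome bisulfite sequencing on DNA from frozen punches of the nucleus accumbens, part of the ventral striatum, with 1 library for each of 9 labelled samples. The samples were male C57BL/6J mice aged 8 weeks, labelled Control (n = 5, numbered 2, 3, 4, 5 and 8) or Susceptible (n = 4, numbered 2, 3, 6 and 7). The same treatment text, 10 daily defeats by a CD1 male aggressor, accompanies the samples of both groups, so the sources used here do not give how Control mice were handled or how susceptibility was scored. No transgene or drug is named. The number in a title is not stated to pair mice, and nothing in the labels gives a batch.

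Neurexins sit on the presynaptic membrane and bind neuroligins across the cleft, and each neurexin gene has several promoters that give long and short proteins. Inside the receiving cell, neuroligins bind PSD-95, the scaffold encoded by Dlg4, which holds glutamate receptors at excitatory synapses, while neuroligin 2 serves inhibitory synapses. Shank proteins form the deeper layer of the postsynaptic density and are linked to metabotropic glutamate receptors by Homer1, whose short form Homer1a is induced by neuronal activity. In mammalian genomes CpG-rich promoters are usually unmethylated and most other CpGs are methylated, and CpG islands inside gene bodies can be in either state.

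Every listed cytosine carried 10 or more calls, and the libraries listed 313475624 to 570984634 calls over 13446563 to 22631489 cytosines. A level is the percent of calls in a region that stayed cytosine in that library. Lists of 5 Control values follow the order 2, 3, 4, 5, 8, and lists of 4 Susceptible values the order 2, 3, 6, 7. Bisulfite does not tell methylated from hydroxymethylated cytosine, and in a tissue punch a level between the extremes cannot be told apart from a mixture of cell types or alleles. Because a cytosine is listed only from 10 calls up, the CpGs that make up a level were not the same in every library. The autosomal level was 74.5% in Susceptible 7 and 75.7 to 77.1% in the other 8 libraries. Marker genes fixed for 4 cell types were read in windows around annotated starts and 5′ gene bounds. Where a gene had no annotated start, both gene ends were read. These windows read 11.5 to 14.3% for 12 striatal projection neuron genes and 52.7 to 65.3% for 7 microglial genes. The same windows read 28.3 to 39.0% for 10 oligodendrocyte genes and 13.9 to 27.1% for 8 astrocyte genes.

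The sequences that follow show how unlike the annotated starts of 1 gene were. They are the 250 bases before the start in Nrxn3 (2 of its starts, with a methylated and an unmethylated window), Dlg4 (3 starts), Homer1 (2 starts) and Shank3. Each runs 5′ to 3′ on the strand of the gene, with each CG in capitals. They were taken from RefSeq for build GRCm38.p6, and of the 9 genes 6 matched that table, with 12 starts. Nrxn2, Shank1 and Shank2 were not matched.
Nrxn3, start at 88794504 on chromosome 12, plus strand (chr12:88794254-88794503): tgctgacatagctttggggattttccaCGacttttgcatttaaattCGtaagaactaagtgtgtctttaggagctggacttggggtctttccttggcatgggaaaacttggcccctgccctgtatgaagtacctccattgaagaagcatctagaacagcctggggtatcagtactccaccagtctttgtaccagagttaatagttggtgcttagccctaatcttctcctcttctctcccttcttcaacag
Nrxn3, start at 89812483 on chromosome 12, plus strand (chr12:89812233-89812482): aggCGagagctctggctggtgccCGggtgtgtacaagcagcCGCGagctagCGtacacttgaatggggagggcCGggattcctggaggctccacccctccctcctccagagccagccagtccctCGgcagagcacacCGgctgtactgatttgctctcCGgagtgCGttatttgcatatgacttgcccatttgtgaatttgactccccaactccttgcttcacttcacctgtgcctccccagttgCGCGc
Dlg4, start at 70017203 on chromosome 11, plus strand (chr11:70016953-70017202): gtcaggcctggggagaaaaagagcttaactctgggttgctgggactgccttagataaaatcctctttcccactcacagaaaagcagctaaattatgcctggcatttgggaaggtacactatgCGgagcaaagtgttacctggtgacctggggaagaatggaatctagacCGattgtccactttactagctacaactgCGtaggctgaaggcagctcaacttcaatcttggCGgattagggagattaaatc
Dlg4, start at 70018605 on chromosome 11, plus strand (chr11:70018355-70018604): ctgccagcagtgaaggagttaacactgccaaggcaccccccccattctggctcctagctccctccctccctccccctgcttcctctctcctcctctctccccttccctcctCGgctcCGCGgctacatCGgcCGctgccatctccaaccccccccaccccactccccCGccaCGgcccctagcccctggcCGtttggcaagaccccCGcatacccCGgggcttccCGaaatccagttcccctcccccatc
Dlg4, start at 70023982 on chromosome 11, plus strand (chr11:70023732-70023981): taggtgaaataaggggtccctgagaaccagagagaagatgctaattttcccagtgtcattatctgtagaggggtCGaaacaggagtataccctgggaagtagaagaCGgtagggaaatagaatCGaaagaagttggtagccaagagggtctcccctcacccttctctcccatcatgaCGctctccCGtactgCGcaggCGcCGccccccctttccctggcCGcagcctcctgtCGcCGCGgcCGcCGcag
Homer1, start at 93303757 on chromosome 13, plus strand (chr13:93303507-93303756): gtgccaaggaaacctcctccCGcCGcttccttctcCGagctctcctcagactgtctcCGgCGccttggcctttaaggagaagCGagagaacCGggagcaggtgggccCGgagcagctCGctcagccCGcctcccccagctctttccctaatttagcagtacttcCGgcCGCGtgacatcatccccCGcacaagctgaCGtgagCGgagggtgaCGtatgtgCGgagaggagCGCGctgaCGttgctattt
Homer1, start at 93308034 on chromosome 13, plus strand (chr13:93307784-93308033): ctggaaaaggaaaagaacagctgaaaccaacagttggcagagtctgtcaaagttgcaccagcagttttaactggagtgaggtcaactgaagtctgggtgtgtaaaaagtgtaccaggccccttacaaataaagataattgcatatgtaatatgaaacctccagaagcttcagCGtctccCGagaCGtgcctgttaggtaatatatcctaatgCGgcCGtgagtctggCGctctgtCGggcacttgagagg
Shank3, start at 89499608 on chromosome 15, plus strand (chr15:89499358-89499607): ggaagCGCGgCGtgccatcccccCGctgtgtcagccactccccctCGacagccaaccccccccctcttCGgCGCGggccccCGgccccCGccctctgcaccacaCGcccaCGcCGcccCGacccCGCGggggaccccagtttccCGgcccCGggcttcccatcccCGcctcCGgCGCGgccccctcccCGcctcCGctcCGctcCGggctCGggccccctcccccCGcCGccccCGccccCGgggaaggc

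The 2 Nrxn3 stretches held 2 and 12 CG, the Dlg4 stretches 4, 11 and 14, the Homer1 stretches 21 and 7, and the Shank3 stretch 31. The median over 32619 annotated starts was 6 CG. The Shank3 stretch therefore had more CG than 94.8% of starts, and the Homer1 stretch at 93303757 more than 83.5%. Over the CpGs listed inside these 250 bases, the median library read 85.9% at the first Dlg4 start, 0% at the middle start and 1.25% at the last. At Homer1 the median was 0.922% in the stretch at 93303757 and 46.3% in the stretch at 93308034. These medians rest on as few as 12 calls in a library at the first Dlg4 start, 20 at the middle one and 373 at the Homer1 start at 93303757. The Nrxn3 stretch at 88794504 had calls in only 3 libraries, at 0 to 85%, so its own state was not read in the others. The letters TGACGT, the core of a cyclic AMP response element, were searched on both strands (reverse ACGTCA) in the 300 bases from 250 before to 50 after each start. They were found in 7.56% of the 32619 promoters, and among the 12 starts of these genes only in the Homer1 promoter at 93303757, which held 3. Of 1090 calls at the CpGs of those 3 matches, 1 was methylated.

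Around the starts, the neurexin genes held both extremes. In each case the level was read in a window of 1 kb on each side of a start. Whether an annotated start acts as a promoter in this tissue was not tested. Nrxn3, on the plus strand of chromosome 12, has 4 such positions. The start at 88794504 was methylated in every library, with Control libraries at 94.4, 97.4, 96.7, 93.5 and 98.2% and Susceptible libraries at 96.6, 95.4, 95.4 and 95.8%. The start at 89812483, 1018 kb further on, was nearly unmethylated, with Control libraries at 6.23, 7.95, 5.25, 4.56 and 7.06% and Susceptible libraries at 6.72, 5.31, 4.99 and 5.83%. The windows held 27 and 63 listed CpGs, and the highest library of the lower window read 7.95%. The other 2 windows had middle levels. The 5′ bound of the gene at 88722701 averaged 20.2% ± 7.39 (SD, n = 9), and the start at 88953390, whose window also holds the start of Gm40537, averaged 30.6% ± 11.5 (SD, n = 9). That window varied from 11.01% in Control 8 to 46.3% in Susceptible 7, and the groups overlapped.

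For Nrxn2, on chromosome 19 from 6418756 to 6533217, both gene ends were read because its strand was not in the tables used. The lower-coordinate end, with 83 listed CpGs, read 6.93 to 11.6% in the Control and 8.53 to 10.8% in the Susceptible libraries. Gm14965 also lies in that window. The higher-coordinate end, with 46 CpGs, read 65.0 to 75.7% in the Control libraries while the Susceptible libraries read 66.8, 73.3, 76.3 and 44.5%. Susceptible 7 was thus 20.6 points under the lowest Control library there, and the other 8 libraries lay within 11.3 points of each other.

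The neuroligin genes were unmethylated at every annotated start. Nlgn1, on the minus strand of chromosome 3, averaged 2.65% ± 2.60 at 26153986 and 2.74% ± 1.71 at 26331909 (SD, n = 9 for both). The window at 26153986 was thinly covered, with as few as 43 calls over 3 CpGs in a library, and read 0% in Control 5 and Control 8 and 6.69% in Control 2. The window at 26331909 had at least 1279 calls and also holds a start of A830092H15Rik. Nlgn2, on the minus strand of chromosome 11 at 69837784, averaged 1.34% ± 0.827 (SD, n = 9) over 114 CpGs, in a window that reaches Tmem256.

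Among the scaffold genes the annotated starts ran from unmethylated to middle levels. Shank3 at 89499608 on chromosome 15 read 1.53, 1.15, 1.04, 0.83 and 0.952% in the Control and 1.997, 1.05, 1.64 and 1.34% in the Susceptible libraries, over 191 listed CpGs and at least 4306 calls. Its 5′ gene bound at 89493013, 6.6 kb before, read 86.8 to 99.1% over 14 CpGs. Homer1 at 93303757 on chromosome 13 had 160 listed CpGs and averaged 1.19% ± 0.52, whereas the start at 93308034 had 17 and averaged 50.3% ± 10.8 (SD, n = 9 for both). At the latter the libraries ran from 33.7% in Susceptible 3 to 67.5% in Control 5. Dlg4 on chromosome 11 averaged 56.7% ± 5.82 at 70017203, 18.2% ± 5.88 at 70018605 and 19.6% ± 4.90 at 70023982 (SD, n = 9 each). The windows of the former pair of Dlg4 starts overlap, so their levels share CpGs.

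Shank1 and Shank2, both on chromosome 7, were read at both gene ends. Shank1, from 44308916 to 44360094, averaged 81.5% ± 4.42 at the lower-coordinate end over 20 CpGs. At the higher-coordinate end, where 1700008O03Rik also lies in the window, it averaged 1.83% ± 0.76 over 80 CpGs (SD, n = 9 for both). Shank2, from 143978077 to 144426043, averaged 6.40% ± 1.15 over 101 CpGs at the lower end. The higher end averaged 52.2% ± 5.64 over 20 CpGs (SD, n = 9 for both), and Gm34561 lies in that window. Over all 29521 annotated starts that could be read in every library, 46.3% averaged under 20%, 21.7% between 20 and 80% and 32.0% over 80%.

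**Figure D1:**
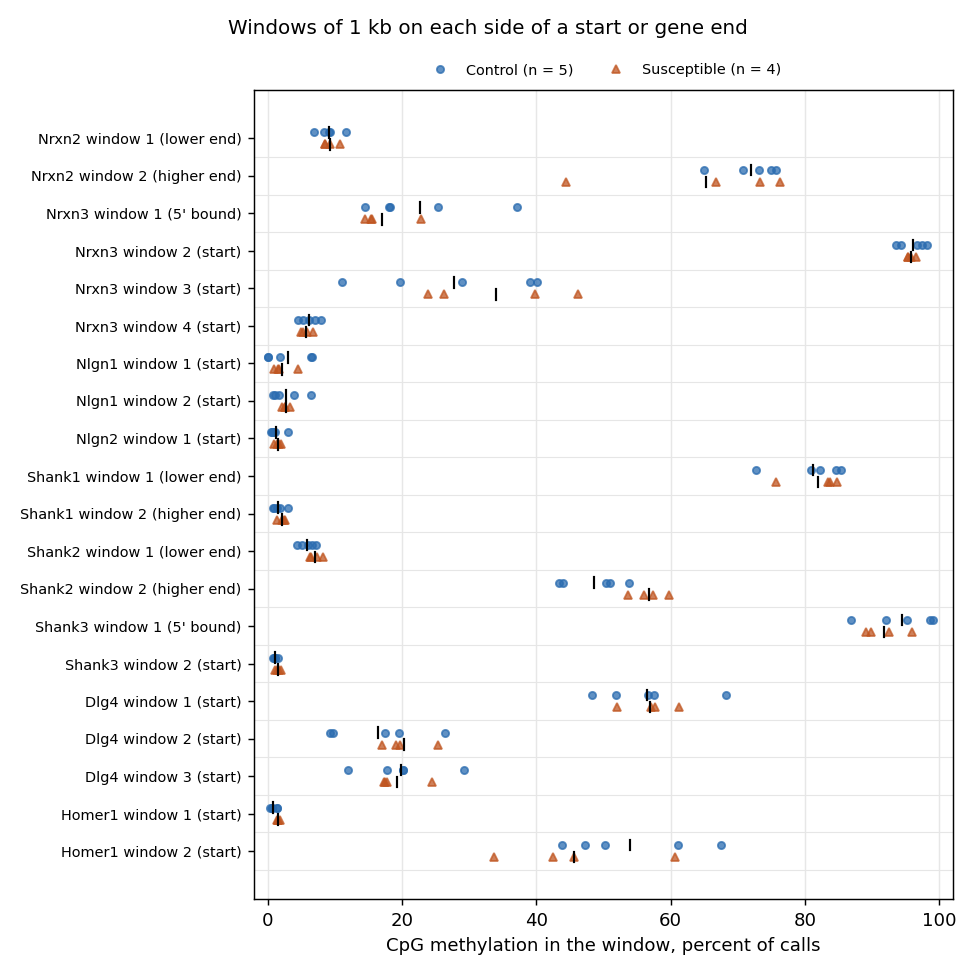
Methylation in the 20 windows of 1 kb on each side of a start or gene end, in percent of calls on the horizontal axis, for 5 Control libraries (circles) and 4 Susceptible libraries (triangles), with black ticks at the group means. Windows at Nlgn1, Nlgn2, Shank3 start and Homer1 start 93303757 (window 1) lie near 0, while the second Nrxn3 window lies above 93% in every library, and in Nrxn2 window 2 Susceptible 7 stands at 44.5%.

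The comparison of Susceptible with Control mice asked whether methylation at these starts differed with the phenotype. None of the 20 windows passed a Benjamini-Hochberg adjusted p of 0.05 in the quasi-binomial model over 38737 windows, where 0% of all windows passed. At an unadjusted p under 0.05 there was 1 of the 20, against 4.76% of all windows. That window was Homer1 at 93303757, which read 1.42, 0.591, 1.33, 0.318 and 0.674% in the Control libraries. The Susceptible libraries read 1.79, 1.46, 1.54 and 1.58%. All 4 Susceptible libraries lay above all 5 Control libraries, as in 0.96% of all windows (0.885% had them all below and 1.85% either), and the closest pair, Control 2 and Susceptible 3, differed by less than the SD of either group. The Control mean was 0.867% ± 0.484 (SD, n = 5) and the Susceptible mean 1.59% ± 0.138 (SD, n = 4), which is 0.73 percentage points higher (exact permutation test, two-sided, p = 0.0397; quasi-binomial adjusted p = 0.978). With windows of 2 kb on each side the difference was 0.34 points. Conversion was not measured here, so levels of 1 to 2% were not told apart from unconverted cytosine. In the other windows under 3% on average, at Nlgn1, Nlgn2, the Shank1 higher end and the annotated Shank3 start, Susceptible minus Control ran from -0.773 to 0.528 points. At the Shank2 lower end, which averaged 6.40%, it was 1.18 points.

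The smallest exact p among the 20 windows was at the higher-coordinate end of Shank2. It read 51.1, 53.9, 43.4, 50.4 and 43.9% in the Control and 56.0, 57.4, 59.8 and 53.6% in the Susceptible libraries. Susceptible 7 lay below Control 3, so the groups overlapped, and the difference was 8.19 points (exact permutation test, two-sided, p = 0.0238; quasi-binomial adjusted p = 0.978). With a narrower window the difference was 0.879 points, and with 2 kb on each side it was 11.9 points (exact permutation test, two-sided, p = 0.81 and p = 0.0397). Over the 20 windows the median difference was 0.27 points, and over all 38737 windows it was -0.089 points.

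Over the gene bodies the order from high to low was Nlgn1 (81.0% ± 0.907), Nrxn3 (80.1% ± 0.786), Shank2 (75.5% ± 1.19), Nrxn2 (67.9% ± 4.04), Nlgn2 (61.0% ± 2.48), Dlg4 (60.5% ± 2.07), Shank3 (57.7% ± 1.38), Shank1 (52.9% ± 4.57) and Homer1 (52.3% ± 4.69), each as mean ± SD of 9 libraries. Nlgn2 and Dlg4, and Shank1 and Homer1, differed as pairs by less than the SD of either gene. The median protein-coding gene read 72.4%. The longest genes, Nrxn3 (1612235 bp) and Nlgn1 (911059 bp), had 4.87 and 4.45 listed CpGs per kb, and the shorter Nlgn2, Shank3 and Shank1 had 24.0, 21.4 and 19.95. A body level weights CpGs by calls. In Homer1 the median level of the 1-kb tiles was 85.3%, above the body level of 52.3%.

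None of the 9 bodies passed an adjusted p of 0.05 or an unadjusted p of 0.05 in the quasi-binomial model. Among all 32376 bodies 0% passed the former and 4.73% the latter. The groups overlapped in all 9, whereas 0.476% of all bodies were higher in Susceptible without overlap and 1.14% lower, 1.61% in all. The smallest unadjusted p was that of Shank3, whose body averaged 57.1% ± 1.22 over the 5 Control libraries and 58.5% ± 1.30 over the 4 Susceptible libraries (SD; exact permutation test, two-sided, p = 0.159). Over CpGs listed in all 9 libraries the Shank3 difference was 2.13 points (exact permutation test, p = 0.0317) and the Nlgn1 difference -1.23 points (p = 0.0397, exact), with a quasi-binomial adjusted p of 0.991 for both. With each CpG weighted equally they were 0.0489 and -0.286 points (exact permutation p = 0.944 and 0.706), and without Susceptible 6 the Shank3 difference was 0.793 points. The Nrxn2 body read 69.1, 70.2, 67.9, 70.2 and 68.3% in the Control libraries. The Susceptible libraries read 70.0, 71.0, 66.9 and 57.7%. Here Susceptible 7 lay 9.14 points under the next library. The Shank1 body had the same low library, at 42.3% in Susceptible 7 against 50.1 to 57.4% in the other 8. The median difference over the 9 bodies was -0.272 points, beside -0.388 points over all bodies.

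Along the genes, 1107 of the 3254 overlapping 1-kb tiles could be tested, with 3 or more CpGs and 20 or more calls in all 9 libraries. The tested share was 95.7% of tiles in Nrxn2, 92.5% in Shank1 and 83.8% in Shank3. It was 21.4% in Nrxn3, 14.8% in Nlgn1 and 25.3% in Homer1, so these genes were read only in part. Of the 1107 tiles, 44 averaged under 20%, 398 between 20 and 80% and 665 over 80%. The spread between libraries was widest in the middle class, with a median SD of 9.44 points, against 2.52 points for low tiles and 5.03 points for high tiles. The share of tiles over 80% ran from 75% in Nlgn1 and 72% in Homer1 down to 45.9% in Nrxn2 and 30.6% in Shank1, and was 75.9% over the 1041809 tiles tested in the whole genome.

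The low tiles formed 24 runs of adjoining tiles. In Nlgn1, Nlgn2 and Homer1 every run lay at an annotated start or, for 1 Nlgn1 run, 986 bp from it. The Homer1 run covered 93303001 to 93306000 and the Nlgn2 run 69834001 to 69838000. Dlg4 had 4 runs within 12 kb, at 70018001 to 70019000, 70020001 to 70022000, 70023001 to 70024000 and 70026001 to 70030000. The last of these lies 2019 bp or more from any annotated start and read 5.34 to 18.4% in its 4 tiles. It ends abruptly, since the tile from 70029001 averaged 5.34%, the tile from 70030001 averaged 74.9% and the tile from 70031001 averaged 92.1%. Shank2 had 4 runs away from its ends, 8043 to 196924 bp from the nearer one. Further runs away from any start or end used here were 3 in Shank1, 2 in Nrxn3 and 1 in Nrxn2. Starts inside Shank1, Shank2 and Nrxn2 were not in the tables used. In Shank3 a tile of 81 listed CpGs from 89523001 to 89524000, 23393 bp from the nearest Shank3 start or end, averaged 16.5%. It was not counted among the internal dense tiles because a start of the long noncoding RNA gene Gm15609 lies within 1 kb.

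CpG-dense tiles inside the genes, with 30 or more listed CpGs and more than 1 kb from any start or end used here, numbered 35. For Nrxn2, Shank1 and Shank2 only the gene ends were used. Starts inside these genes could therefore not be excluded, and their tiles and tile counts may include such starts. Shank1 and Nrxn2 had 9 each, Shank2 and Shank3 5 each, Dlg4 4, Nlgn2 2 and Nrxn3 1. Nlgn1 and Homer1 had none, as did 79.5% of 20101 protein-coding genes. The count in Shank1 and in Nrxn2 was higher than in 99.7% of protein-coding genes. Of the 35 tiles, 11 averaged under 20%, 14 (40%) between 20 and 80% and 10 (28.6%) over 80%. In the 7341 such tiles of other protein-coding genes the middle class held 22.9% and the high class 50.9%. The median SD between libraries was 4.39 points in the 35 tiles and 2.50 points in the others. These medians were not matched for level. The middle class, more frequent among the 35, had the widest spread among the tested tiles of the 9 genes.

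**Figure D2:**
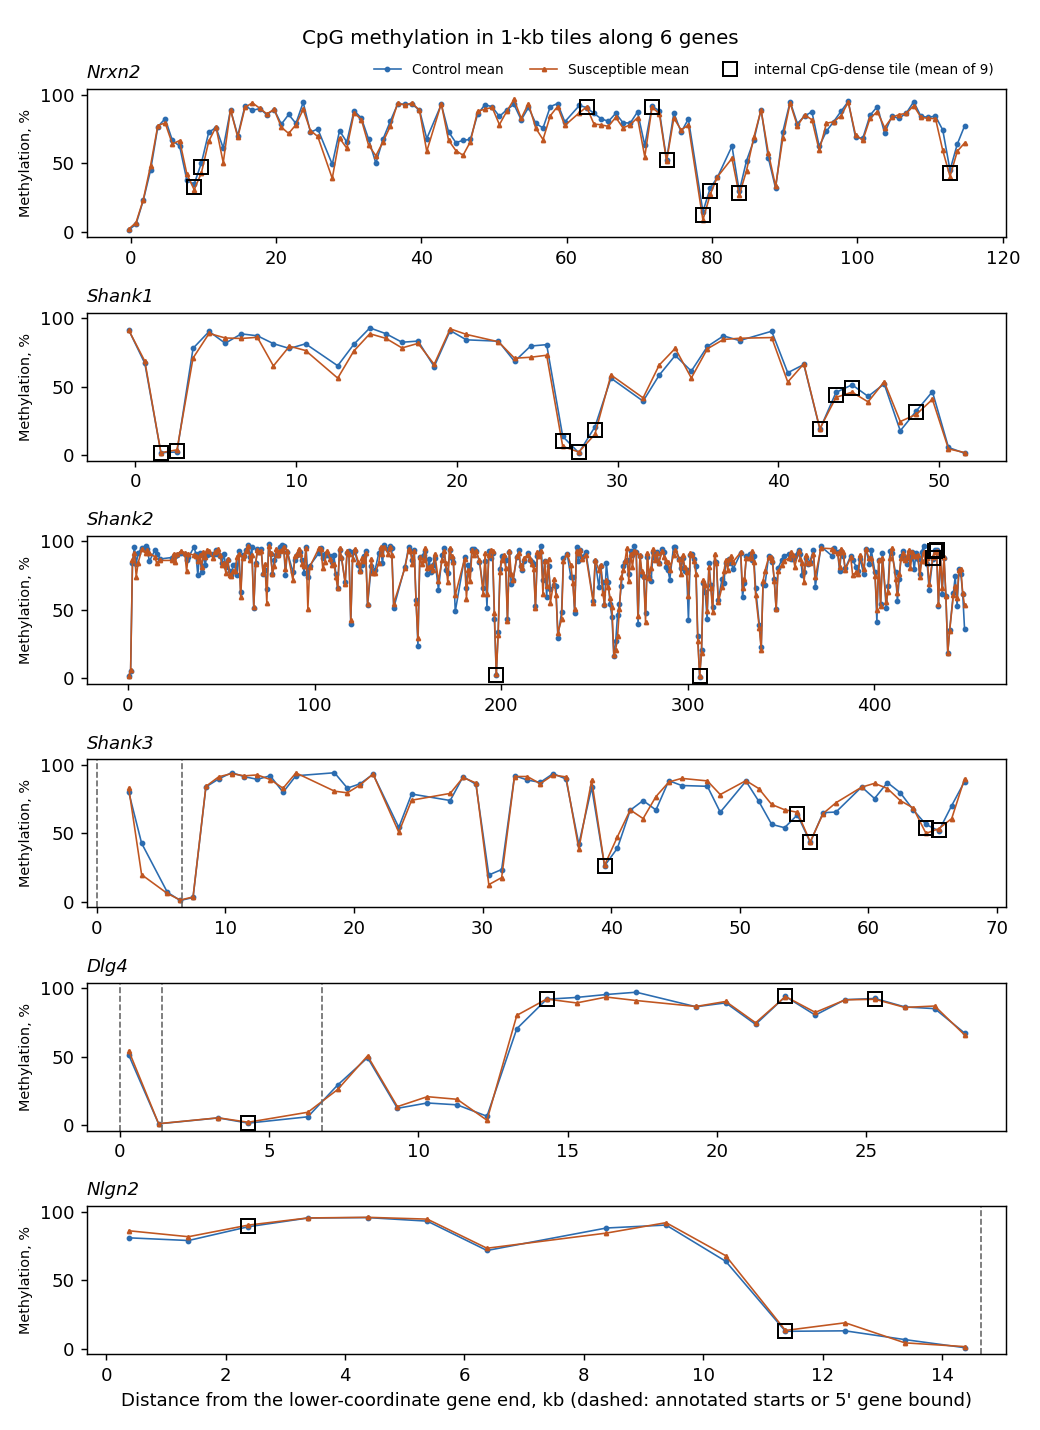
Mean methylation of the 5 Control libraries (circles) and 4 Susceptible libraries (triangles) in tested 1-kb tiles of 6 genes, in percent of calls, against distance from the lower-coordinate gene end in kb; squares mark the internal CpG-dense tiles at their mean over 9 libraries. In Dlg4 the level steps from 5.34% to 92.1% between 12.3 and 14.3 kb, and in Shank2 the dense tiles at 197.4 and 306.4 kb average 2.78 and 1.65%.

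Shank1, which lies at the core of the postsynaptic density, had dense tiles in 3 places. The tiles 1.58 and 2.58 kb from its lower-coordinate end averaged 1.72 and 2.92%, and all 30 CpGs listed in every library in the former were under 20%. Around 27.6 kb a run of 3 dense tiles averaged 10.3, 1.89 and 18.1%. Between 42.6 and 48.6 kb the 4 dense tiles averaged 19.0, 44.1, 48.9 and 31.1%. The highest of these, chromosome 7 from 44353001 to 44354000, read 50.9, 47.2, 43.7, 59.0 and 55.5% in the Control and 52.1, 57.9, 54.2 and 19.3% in the Susceptible libraries. Its middle level was seen CpG by CpG, because all 44 CpGs listed in all libraries lay between 20 and 80%. Susceptible 7 alone lay outside the range of 43.7 to 59.0% there.

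Shank2, a scaffold of excitatory synapses with several internal promoters known, had dense tiles at both extremes and none between. Chromosome 7 from 144175001 to 144176000, 197.4 kb from the lower end, read 1.65 to 3.998% in the Control and 2.37 to 3.75% in the Susceptible libraries. The tile from 144284001, at 306.4 kb, averaged 1.65% ± 0.805 (SD, n = 9), the lowest of its dense tiles. At these tiles 34 of 34 and 20 of 20 CpGs listed in every library were under 20%. The 3 adjoining tiles at 431.4, 432.4 and 433.4 kb averaged 88.1, 93.0 and 93.6%, the last of them the highest of its dense tiles. Summed over all 5 tiles, with at least 155 listed CpGs in a library, the levels were 52.7 to 65.0% in the Control and 54.8 to 62.3% in the Susceptible libraries. That sum pools calls from low and high tiles, so it also shifts with the share of calls in each. Control 3 summed to 65.0% and Control 4 to 52.7%. Their 3 high tiles read 88.4, 92.2 and 93.7% in Control 3 and 84.5, 92.5 and 92.9% in Control 4.

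Shank3, whose loss causes a human neurodevelopmental syndrome, had middle levels in all 5 of its dense tiles. The lowest, chromosome 15 from 89532001 to 89533000, averaged 26.5% ± 4.60, and the highest, from 89547001 to 89548000, averaged 64.4% ± 7.15 (SD, n = 9 for both). In the tile from 89548001, 35 of 38 CpGs listed in every library lay between 20 and 80%. The other tiles averaged 43.6, 53.6 and 52.6%.

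Nrxn2 had middle levels in 6 of its 9 dense tiles, 1 low tile and 2 high ones. The lowest, chromosome 19 from 6497001 to 6498000, averaged 11.8% ± 5.24, and the highest, from 6490001 to 6491000, averaged 91.2% ± 1.51 (SD, n = 9 for both), only 7 kb apart. Gm52381 also lies in the lowest tile and in the dense tile from 6492001, so these tiles are not of Nrxn2 alone. The densest, from 6428001 to 6429000, held 129 listed CpGs, of which 106 of the 118 listed in every library lay between 20 and 80%. It read 47.2, 53.1, 46.8, 55.4 and 48.4% in the Control and 51.3, 52.5, 40.4 and 27.5% in the Susceptible libraries.

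Dlg4, Nlgn2 and Nrxn3 had dense tiles at the extremes. In Dlg4 the tile from 70021001 averaged 1.89% ± 0.977, and the others averaged 92.1, 94.0 and 92.3%, the highest being the tile from 70039001. In Nlgn2 the tile from 69834001 averaged 13.0% ± 2.60 and the tile from 69825001 averaged 89.6% ± 2.12. The dense tile of Nrxn3, from 89260001, averaged 93.2% ± 1.97 (SD, n = 9 for each value given with an SD), and all 24 of its CpGs listed in every library were over 80%.

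**Figure D3:**
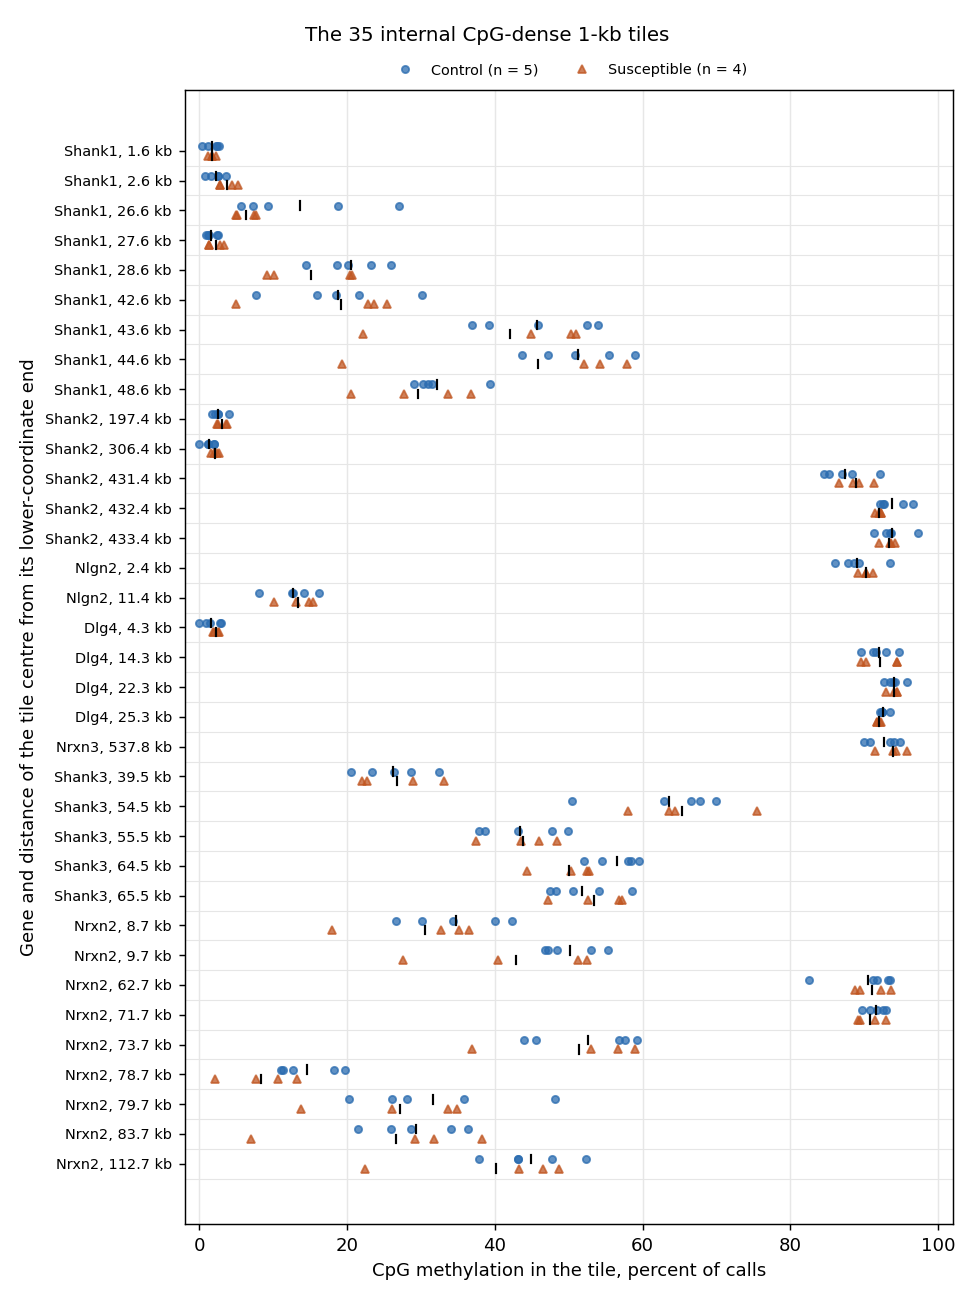
The 35 internal CpG-dense tiles, each named by gene and distance of its centre from the lower-coordinate end in kb, with methylation in percent of calls for 5 Control libraries (circles) and 4 Susceptible libraries (triangles) and black ticks at group means. Shank2, Dlg4 and Nrxn3 tiles lie at the ends of the scale, all 5 Shank3 tiles average from 26.5 to 64.4%, and Susceptible 7 is the lone low triangle in several Nrxn2 and Shank1 tiles.

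Summed over the dense tiles of a gene, the exact permutation test of Susceptible against Control gave p values from 0.27 to 1 in the 7 genes that have them (two-sided). Such a sum can pool calls over tiles of unlike level, as in Shank2, Dlg4, Nlgn2 and Nrxn2. These tests therefore also reflect how calls were shared between tiles. The smallest p was that of Nrxn2, at 51.1% ± 1.96 (SD, n = 5) and 45.8% ± 9.56 (SD, n = 4). Of the 35 tiles 4 had an unadjusted p under 0.05 in the quasi-binomial model, 11.4%, against 7.64% of such tiles in other genes, and none passed adjustment. In none of the 35 were the groups without overlap, against 1.63% elsewhere. The 4 tiles were those of Nrxn2 at 78.7 kb, Shank3 at 64.5 kb and Shank1 at 26.6 and 28.6 kb, each lower in Susceptible libraries by 5.38 to 7.32 points. At Shank3, chromosome 15 from 89557001 to 89558000, the Control libraries read 58.5, 54.5, 52.1, 59.6 and 58.1% and the Susceptible libraries 52.4, 52.8, 50.3 and 44.4%. Susceptible 2 and 3 lay above Control 4 by under 1 point, and every other Control library lay above every Susceptible library (exact permutation test, two-sided, p = 0.0317). The exact p was 0.0952 for the Nrxn2 tile, in which Gm52381 also lies, and 0.198 and 0.19 for the Shank1 tiles. No CpG of the Shank1 tile at 26.6 kb was listed in all 9 libraries, so its difference compares partly different CpGs. The median difference of the 35 tiles was -0.0543 points, and that of the other genes 0.0504 points.

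Over all 1107 tiles of the 9 genes, none passed an adjusted p of 0.05 (smallest 0.997), and 0% of 1041809 tiles did. At an unadjusted p under 0.05 were 57 tiles, 5.15%, against 4.38% of all tiles, with 28 higher and 29 lower in Susceptible libraries (2.18 and 2.19% of all tiles). Groups did not overlap in 11 tiles, 0.994%, against 1.56% of all tiles. In 5 the Susceptible libraries were higher (0.598% of all tiles) and in 6 lower (0.96%). These 11 lay in Shank2 (5), Nrxn3 (4) and Nlgn1 (2). The median difference was -0.366 points in the genes and -0.181 points over all tiles. Counts and median thus sat near those of all tiles.

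The 3 tiles of smallest unadjusted p in each direction lay in Nrxn3, Shank3 and Dlg4. They were chosen by p in these same libraries, which favours agreement in direction among the CpGs of a tile. The Nrxn3 tile on chromosome 12 from 89129001 to 89130000 read 43.9, 49.3, 38.9, 50 and 32.8% in the Control libraries. The Susceptible libraries read 57.9, 50.9, 55.1 and 70.8%. The groups did not overlap, but Control 5 and Susceptible 3 were within 1 point (exact permutation test, two-sided, p = 0.0159; quasi-binomial adjusted p = 0.997). All 8 of its CpGs listed in every library were higher in Susceptible, by 1.68 to 28.8 points. The next tile before it differed by -8.55 points, in the other direction.

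The Shank3 tile on chromosome 15 from 89496001 to 89497000, 3.1 kb before the annotated start, had the smallest p of the 1107. It read 35.7, 35.2, 45.4, 52.0 and 45.8% in the Control and 15.8, 11.3, 35.5 and 16.8% in the Susceptible libraries. Susceptible 6 lay among the Control libraries and the other 3 Susceptible libraries under all of them (exact permutation test, two-sided, p = 0.0159; quasi-binomial adjusted p = 0.997). The difference of -23.0 points depended on the CpGs counted. Of its 17 CpGs 5 were listed in every library, and over those it was -4.57 points (exact permutation test, two-sided, p = 0.548), with all 5 lower in Susceptible by 1.34 to 9.03 points. With each listed CpG weighted equally it was -26.8 points (exact permutation p = 0.00794, the smallest possible). Its neighbours, from 89495001 and 89498001, differed by 2.92 and -0.916 points.

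The other named tiles overlapped between groups. Shank3 from 89544001 averaged 73.4% ± 9.09 against 82.7% ± 5.22, Control first, and the tile after it 56.6% ± 11.04 against 71.1% ± 10.2. Dlg4 from 70030001, the step between the unmethylated and methylated parts of that gene, averaged 70.5% ± 5.53 and 80.3% ± 6.18. Nrxn3 from 89811001, at the edge of the unmethylated start at 89812483, averaged 12.04% ± 5.66 and 5.22% ± 0.90, while the tile after it averaged 0.884% ± 0.55 and 2.26% ± 0.894, the other way round. Nrxn3 from 89180001 averaged 77.6% ± 8.25 and 63.7% ± 3.04, with 1 of its 16 CpGs listed in all 9 libraries, so that different CpGs were compared (SD, n = 5 Control and n = 4 Susceptible throughout). The adjusted p of each in the quasi-binomial model was 0.997.

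**Figure D4:**
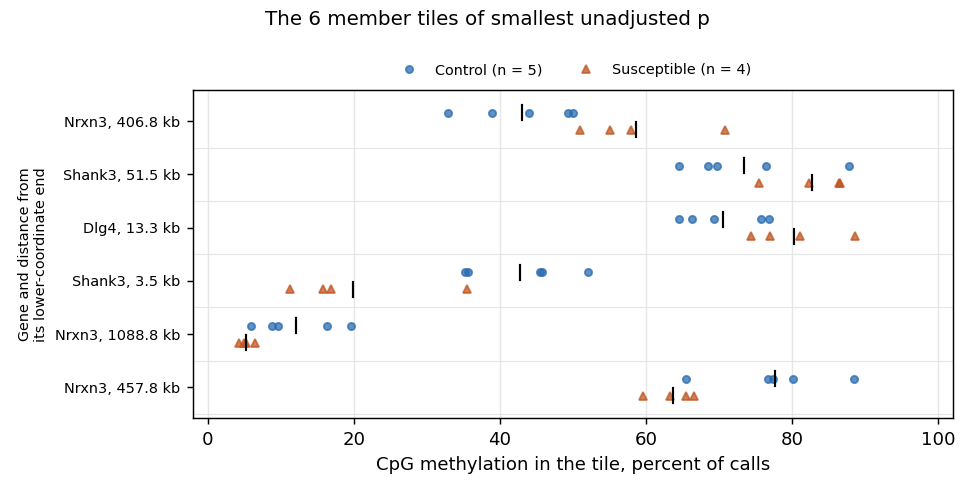
Methylation in percent of calls in the 6 tiles of smallest unadjusted p, 3 in each direction, for 5 Control libraries (circles) and 4 Susceptible libraries (triangles) with black ticks at the means, each tile named by gene and distance from the lower-coordinate end in kb. Only in the Nrxn3 tile at 406.8 kb do the groups not overlap, and in the Shank3 tile at 3.5 kb Susceptible 6 lies at 35.5% among the Control libraries.

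In Nrxn2 and Shank1 the difference between groups depended strongly on Susceptible 7, a pattern looked at after the values had been seen. Susceptible 7 was the lowest of the 9 libraries in 66 of 111 Nrxn2 tiles (59.5%) and in 19 of 49 Shank1 tiles (38.8%), against 18.3% of all tested tiles. It was the lowest in 83 of 364 Shank2 tiles (22.8%), 6 of 57 Shank3 tiles and 2 of 26 Dlg4 tiles. The median tile of Susceptible 7 stood 8.88 points under the mean of the other libraries in Nrxn2 and 7.87 points under it in Shank1. At the dense tiles of Nrxn2 Susceptible 7 read 32.5%. There Susceptible 2, 3 and 6 read 51.8, 53.6 and 45.2%, and the Control libraries 49.2 to 53.7%. Susceptible 6 thus also lay under every Control library, as it did at the Nrxn2 body (66.9% against 67.9 to 70.2%). At the dense tiles of Shank1 Susceptible 7 read 13.8%, with the others at 24.9 to 37.8%. Without Susceptible 7 the difference of the Nrxn2 body went from -2.76 to 0.128 points and that of its dense tiles from -5.34 to -0.923 points. For Shank1 the body went from -2.46 to 0.62 points and the dense tiles from -2.11 to 2.50 points. Susceptible 7 was not the only library that mattered in Shank1. With Control 8 left out instead, its dense-tile difference was -0.0721 points and its body difference -1.60 points. Without Susceptible 7 the Shank2 body went from -0.272 to 0.462 points.

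Susceptible 7 also read highest or lowest of the 9 libraries at the bodies of the marker genes. At the bodies of 12 striatal projection neuron genes Susceptible 6 and Susceptible 7 read 72.8 and 73.5%, with the other libraries at 64.0 to 67.1%. Bodies of 10 oligodendrocyte genes read 56.5% in Susceptible 7 and 58.5 to 63.9% elsewhere, those of 8 astrocyte genes 63.3% and 67.8 to 72.9%, and those of 7 microglial genes 79.1% and 80.2 to 82.7%. The part of these markers, and of the low autosomal level, in the Nrxn2 and Shank1 values was not tested.

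**Figure D5:**
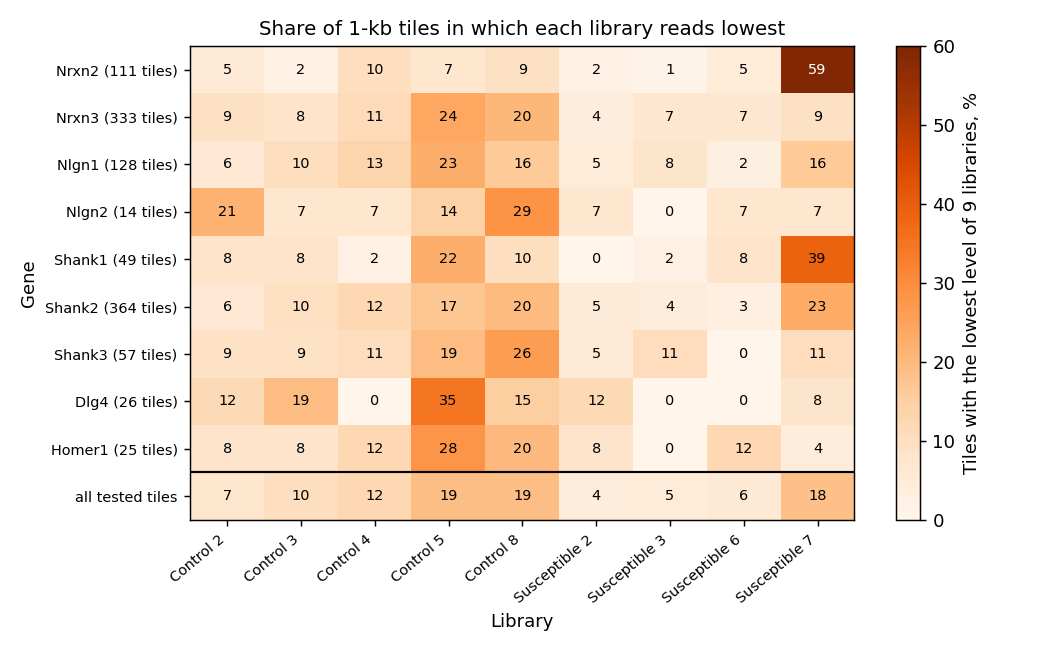
Share of tested 1-kb tiles, in percent by colour and number, in which each of the 9 libraries (columns) had the lowest level, for each gene (rows, with its number of tiles) and for all tested tiles. Susceptible 7 takes 59.5% of Nrxn2 tiles and 38.8% of Shank1 tiles, beside 18.3% of all tiles.

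A separate list held 40 other synaptic adhesion and scaffold genes, among them Nlgn3, the other Dlg and Dlgap scaffolds, Homer2 and the cerebellins. It gave 71 windows at starts, 5′ gene bounds or gene ends. None passed adjustment, 2 had an unadjusted p under 0.05 with a higher level and 1 with a lower level in Susceptible libraries, and the median difference was 0.302 points. Of their 40 bodies none passed adjustment, none was higher and 3 were lower at an unadjusted p under 0.05, and the median difference was -0.118 points. Over all windows 2.34% were higher and 2.42% lower at that p, and over all bodies 1.44% and 3.29%. The windows of smallest p were those of Clstn3, a calsyntenin that organises synapses, with a Control mean of 57.5% ± 10.6 against 72.7% ± 7.03, and of Cask, a neurexin-binding scaffold, with 0.655% ± 0.461 against 1.55% ± 0.61. On the lower side were Nlgn3, a neuroligin on chromosome X, at 10.8% ± 4.12 and 4.49% ± 0.623, and Dlgap1, a binder of PSD-95, at 81.4% ± 5.64 and 75.6% ± 4.53 (SD, n = 5 and n = 4). Cask and Nlgn3 were read at a gene end because their strand was not in the tables used. The quasi-binomial adjusted p was 0.978 for each of the 4.

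The level summed over the 9 bodies was 71.1 to 73.1% in the Control and 72.4, 71.9, 72.3 and 69.7% in the Susceptible libraries. Among 5097 other genes, the bodies whose levels over the 9 libraries were most like that sum were Itga11 (Pearson r = 0.982), Egfem1 (r = 0.971) and Inpp5d (r = 0.971). In all 3 Susceptible 7 was the lowest library, as it was in the sum. The libraries differed in overall level, which was lowest in Susceptible 7, and the correlations are given as a description.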

How the data were processed

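Whole-genome bisulfite sequencing was compared in 9 libraries, 5 Control and 4 Susceptible. Per the submitters' processing notes Bismark, Bowtie, Picard and mm10 were used, without a stated role or version. Per the file headers, the deposited coverage is a count of calls at each CpG cytosine and is listed beside the percent of calls read as C. Methylated calls were recovered as count times percent, the strands of a CpG were added, and all listed CpGs inside the 32619 RefSeq promoter sequences of GRCm38.p6 (396389 of 396389) sat on CG letters. The listed totals are calls left after a minimum of 10, not full depth. No column was left unmapped (0).

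The 9 genes and all gene lists were chosen with earlier results of these data known. Starts came from that table, and where a gene was not in it both gene ends were read. Regions needed 3 CpGs and 20 calls in every library. A quasi-binomial logistic model of the call counts, with dispersion moderated by limma's squeezeVar formulas and kept at 1 or more, was adjusted by the Benjamini-Hochberg method over all windows, bodies or tiles, with a threshold of 0.05. It was tested on simulated data and its moderation checked against limma 3.58.1. Single values had exact two-sided permutation tests of the group labels, with 126 arrangements and a smallest p of 0.00794. Nothing in the labels says that samples are separate animals beyond their titles, so p-values measure the spread between these samples. All 9 genes were described. Named tiles are the dense tiles of lowest and highest mean in each gene and the 3 tiles of smallest unadjusted p in each direction. From the list of 40 synaptic genes the 2 windows of smallest p in each direction were named, and likeness took the 3 highest Pearson correlations. Python 3.11.15, numpy 2.4.6, scipy 1.17.1 and pandas 2.3.3 were used. Alternatives were each library left out, other coverage minimums, CpG sets, window sizes and densities, equal weighting of CpGs, limma on logit levels with a pseudocount of 0.5, no moderation and a replicate block.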

Additional observations from a re-analysis of the deposited data

Results flagged for a closer look

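In 72 groups of libraries, 1 for each group at each start window, body and dense-tile sum of the 9 genes, 4 held a library far from the rest by Dixon's criterion. Chance flags about 1 in 20 groups, so this number is near what chance gives. At the 5′ bound of Nrxn3 (88722701) Susceptible 6 read 22.9%, with the other Susceptible libraries at 14.5 to 15.6%. The Nlgn2 start at 69837784 read 3.06% in Control 8 and 0.458 to 1.11% in the other Control libraries. At the lower-coordinate end of Shank1 (44308916) Susceptible 7 read 75.7%, with the others at 83.4 to 84.8%. The Dlg4 start at 70023982 read 24.4% in Susceptible 7 and 17.3 to 17.8% in the other Susceptible libraries. Their causes were not tested.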

How the results depend on the processing

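No start window, body or tile of the 9 genes passed an adjusted p of 0.05 in the quasi-binomial model, with limma on logit levels, without moderation, under other minimums, CpG sets and window sizes, or with any library left out. At an unadjusted p under 0.05 the main counts were 1 window, 0 bodies and 57 tiles. Tiles numbered 35 of 1107 with limma (33856 of 1041809 over all tiles) and 44 of 1107 without moderation (45579 of 1041809). With at least 5 CpGs and 50 calls they numbered 34 of 660 (28415 of 668146 over all tiles). With at least 20 calls per CpG it was 27 of 563 (23643 of 541443), and over CpGs listed in all 9 libraries 42 of 735 (32480 of 706587). With a library left out they ran from 39 of 1116 without Susceptible 6 (29685 of 1046248) to 79 of 1265 without Control 5 (60588 of 1161227). Windows numbered 2 without moderation, 0 over CpGs listed in all 9 libraries and without Susceptible 2, and 1 under each other setting without a block. Over all windows the settings named here gave 1889 of 38737, 1830 of 34612 and 1471 of 38745, in that order. Bodies numbered 2 over CpGs listed in all 9 libraries, 1 with at least 20 calls per CpG, without Control 3 and without Susceptible 6, and 0 under each other setting without a block. For all bodies the same settings gave 1477 of 30884, 1512 of 30908, 1564 of 32397 and 1253 of 32387, in that order. The direction of the difference changed in 36 of 355 values of start windows, 19 of 144 of bodies, 24 of 111 of dense-tile sums and 0 of 99 of the 6 named tiles. None of these values was past the threshold. The 6 named tiles were chosen by their p in these same data, which favours a constant direction.

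Same-numbered Control and Susceptible libraries did not deviate together across tiles (r = 0.0258 for number 2 and -0.0171 for number 3). Control 2 with Susceptible 3 gave r = 0.0387, and Control 3 with Susceptible 2 gave r = -0.00135. These correlations cannot decide whether libraries of 1 number were paired, because a pairing need not show in methylation. With a replicate block over the 4 libraries numbered 2 and 3 the adjusted counts were 0. At an unadjusted p under 0.05 were 53 of 1573 tiles, 0 of 20 windows and 1 of 9 bodies. Over all features these were 48726 of 1342634 tiles, 2055 of 40035 windows and 1525 of 32823 bodies. The dense-tile sums were compared over those 4 libraries without a block term: Susceptible minus Control ran from -2.69 points in Dlg4 to 3.95 points in Shank1, with exact permutation p from 0.333, the smallest that 4 libraries allow, to 1. Over those libraries the Nrxn3 tile from 89129001 differed by 7.80 points. With all 9 libraries 1107 of 3254 tiles could be tested, and 1265 without Control 5, which listed the fewest cytosines.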
